A study of Mus musculus with 2 samples.

Results

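Exonic ELF1 peaks were the peaks of the mm9 list whose summit lay over 1 kb from every annotated transcript start and inside an annotated exon, whether coding, untranslated or noncoding. They numbered 492 of 18804 peaks, a share of 2.62% (95% exact Clopper-Pearson interval 2.39 to 2.85%), and 5.11% of the 9631 peaks that lay over 1 kb from a start. Exons and starts were those of GENCODE M1, an annotation on the same mouse build as the list. The rule used position alone and no measured value.

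The cells were CH12.LX, an immortalized mouse line from a B-cell lymphoma of strain B10.H-2aH-4bp/Wts, and ELF1 was mapped in them by ChIP-seq. In ChIP-seq, chromatin fragments held by an antibody are sequenced, and peaks mark positions where they accumulate. The labels give a single group, of 2 biological replicates, without treatment, genotype change or second condition. The mm9 list joined the 2 replicates, which can be seen singly only in their own mm10 lists, and the read depth behind each peak is unknown.

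ELF1 belongs to the ETS transcription factors, which recognise a GGAA core in double-stranded DNA through a shared DNA-binding domain. ELF1 is broadly expressed in blood cells and is known for binding near the starts of genes. An exon is read both as part of a transcript and as ordinary double-stranded DNA, so a factor may contact a site whose letters also spell codons or untranslated sequence.

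The sites below show what such a contact sequence looks like in each exon class. For every class the 3 strongest peaks are given, with 1 exception named here, that held CGGAAG or AGGAAG within 50 bp of the summit, which are the common 6-letter forms of the ETS core at these peaks. Each 29-base stretch reads 5′ to 3′ on the strand of the word nearest the summit, capitals mark the word, and positions are mm9. The exception is the peak in the noncoding gene B430212C06Rik, which held CCGGAAGT and had a higher peak signal (414.8, on the caller's own scale) than that in Gm14486 (379.8), but whose sequence is not shown.
Krt10, coding exon, chr11:99247368-99247396, minus strand: ggctacggcggCGGAAGttccagcggtgg
Cyp4f17, coding exon, chr17:32661052-32661080, minus strand: cgcaggccttgCGGAAGcgccgcccatca
Gm9705, coding exon, chr17:32771975-32772003, minus strand: ccggcaggatgCGGAAGcgcagcagagtc
1700081L11Rik, 5′ UTR, chr11:104286529-104286557, plus strand: cacagagagacAGGAAGtccagcctctcc
Metap2, 5′ UTR, chr10:93352521-93352549, plus strand: accagcgacgcCGGAAGccgcgctcgatg
Nup160, 5′ UTR, chr2:90519492-90519520, plus strand: cgccacaccccCGGAAGtgacgagccgac
Zfp385c, 3′ UTR, chr11:100488114-100488142, minus strand: gctcctggaacAGGAAGaggaagtgaaac
Aars, 3′ UTR, chr8:113580196-113580224, plus strand: ctttaagcgagCGGAAGagccgggtgcgc
Itsn1, 3′ UTR, chr16:91918184-91918212, minus strand: accatctaggtAGGAAGagccccacagtg
Phf15, noncoding transcript, chr11:51656812-51656840, minus strand: caccatgcatcAGGAAGtcagtcagtgag
Zfand1, noncoding transcript, chr3:10342761-10342789, plus strand: caatggctgggCGGAAGaggcggaacttc
Gpc6, noncoding transcript, chr14:118024743-118024771, plus strand: gtagattaaacAGGAAGtcagtcctctaa
D030055H07Rik, noncoding gene, chr9:106062473-106062501, plus strand: ggggattaaccCGGAAGtggctggtctga
A530083I20Rik, noncoding gene, chr9:122795909-122795937, plus strand: ccaggaggtacCGGAAGtgatgctctcat
Gm14486, noncoding gene, chr2:30514082-30514110, plus strand: ccgcaaggaacAGGAAGcagcagaaatag

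In 9 of these 15 sites the core was preceded by C, and in 6 by A. The Nup160, D030055H07Rik and A530083I20Rik sites extended the word on both sides to CCGGAAGT. The Zfp385c site repeated the core in tandem within the printed stretch. Krt10 encodes a keratin of the outer epidermis, and its site lay in the glycine-rich coding repeat of the gene's exon 7 of 8. The centre of the word lay between 0.5 bp (Zfp385c and Itsn1) and 25.5 bp (Zfand1) from the summit.

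Coding exons were the largest class, with 217 peaks or 44.1% of the 492 (39.7 to 48.6%). The 3′ untranslated regions (UTRs) held 170 peaks (34.6%, 30.4 to 38.9%), and the 5′ UTRs 14 (2.85%, 1.56 to 4.73%). Exons of noncoding transcripts of protein-coding genes held 41 peaks (8.33%), of which 26 lay in retained-intron models and 15 in processed transcripts. Exons of noncoding genes held 50 peaks (10.2%), among them 20 in lincRNAs and 14 in antisense RNAs. Where transcripts gave a summit more than 1 class, which happened for 70 peaks, the order coding, 5′ UTR, 3′ UTR, noncoding decided. When noncoding exons were put first, the coding share was 35.6%.

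Per megabase of annotated sequence over 1 kb from a start, the exonic density was 7.94 peaks (exact Poisson interval 7.25 to 8.67). The same density was 86.4 per Mb within 1 kb of starts, 4.75 per Mb in introns (4.61 to 4.89) and 3.25 per Mb between genes (3.16 to 3.34). Coding exons held 8.23 peaks per Mb, 3′ UTRs 6.89, noncoding transcripts 7.15 and noncoding genes 10.9. The 14 peaks in 5′ UTRs came from only 0.569 Mb, a density of 24.6 per Mb with a wide interval of 13.5 to 41.3. These intervals, like all others here, cover counting error only and not the spread between cultures. The megabases, here and in the distance bands below, count every known base. Whether reads can be placed uniquely on those bases was not assessed. It may differ between exons, introns and intergenic sequence, and so affect how their densities compare.

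Density fell with distance from a start in exons as a whole, in introns and between genes. At 1 to 2 kb the exonic density was 13.4 per Mb (10.96 to 16.2), beside 11.1 in introns (10.2 to 12.1) and 9.66 between genes. At 2 to 5 kb it was 8.73 in exons, 7.14 in introns and 7.02 between genes. At 5 to 20 kb it was 7.80 in exons (6.74 to 8.97), 5.52 in introns and 5.63 between genes. Beyond 20 kb it was 4.24 in exons (3.22 to 5.46), 2.84 in introns (2.69 to 3.01) and 1.98 between genes. The exonic value was thus the highest of the 3 in every band, and its interval overlapped the intronic one in the first 2 bands and not beyond 5 kb. Within the first band coding exons stood at 15.8 per Mb (11.8 to 20.7) and 3′ UTRs at 7.46 (4.26 to 12.1). At 2 to 5 kb coding exons stood at 8.87 and 3′ UTRs at 9.17 (6.83 to 12.1), so the 3′ UTR value was not highest nearest the start, and its intervals in the 2 bands overlapped.

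**Figure D1:**
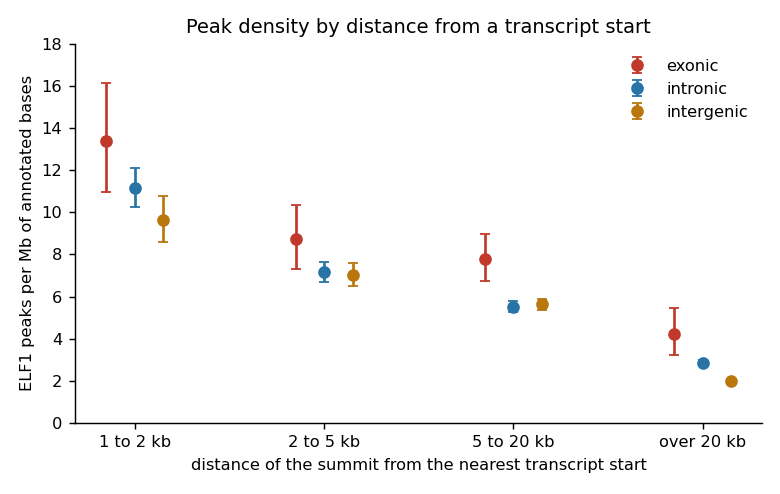
Peaks per megabase of annotated bases (vertical axis) for exonic, intronic and intergenic peaks in 4 bands of distance from the nearest transcript start (horizontal axis); points are densities and bars 95% exact Poisson intervals. All 3 locations are densest at 1 to 2 kb, where exons stand at 13.4 per Mb, and thinnest beyond 20 kb, where exons stand at 4.24 per Mb.

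Exonic peaks lay a median of 5376.5 bp from the nearest start, beside 9507 bp for intronic and 15804.5 bp for intergenic peaks. That nearest start belonged to a gene other than the host in 183 of the 492 (37.2%). The peaks that decided the 1 kb limit were few. Between 1000 and 1100 bp from a start lay 17 members with a median signal of 56.2, and between 900 and 1000 bp lay 14 exon peaks just outside the rule with a median of 63.9. The nearest to the limit were a peak in Gm15753, inside at 1006 bp with a signal of 62.3, and one in 5031425E22Rik, outside at 983 bp with a signal of 64.7.

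The peak signal is the authors' own value for each peak and comes from their caller. No source used here states its scale, so it serves only to rank and describe peaks within a list. Exonic peaks had a median signal of 58.0 (order-statistic interval 55.2 to 62.4), beside 106.7 for promoter peaks, 57.0 for intronic and 59.6 for intergenic peaks, and 72.1 for the whole list. Of the 492, 186 (37.8%) lay in the stronger 50% of the list, beside 64.8% of promoter, 34.0% of intronic and 37.5% of intergenic peaks. Only 16 exonic peaks fell in the strongest 10% of the list, where they made up 0.851% of the peaks, while 70 fell in the weakest 10% and made up 3.72%.

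The medians were 56.4 in coding exons, 57.8 in 3′ UTRs, 57.8 in noncoding transcripts and 60.9 in noncoding genes. The 14 peaks in 5′ UTRs had a median of 86.7 (57.3 to 114.6), and 11 of them lay in the stronger 50% of the list. All classes reached well above their medians, with highest values of 640.2 in coding exons, 876.8 in 3′ UTRs and 209.0 in noncoding transcripts.

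**Figure D2:**
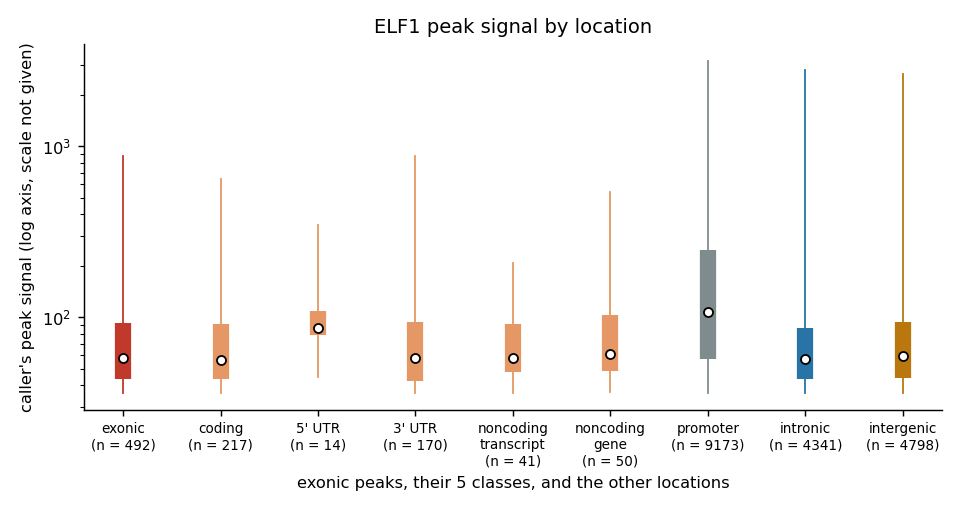
Peak signal as the caller gave it (vertical log axis, scale not given) for all exonic peaks, their 5 classes, and promoter, intronic and intergenic peaks (horizontal axis, with n). Circles are medians, thick bars span the quartiles and thin lines the full range; the exonic median of 58.0 sits near the intronic 57.0 and below the promoter 106.7.

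Over all exon classes the places of the peaks in the transcript were close to those of the exon bases. Coding peaks lay in last exons slightly more often than coding bases did, by a margin close to counting error. Of the 492, 297 (60.4%, 55.9 to 64.7%) lay in a last exon, 173 (35.2%) in an internal exon, 7 in a first exon and 15 in a single-exon transcript. Of all exon bases over 1 kb from a start, counted over 1 transcript per gene, 57.4% lay in last exons and 39.1% in internal exons. Of the coding peaks, 26.7% (21.0 to 33.1%) lay in a last exon and 70.5% (64.0 to 76.5%) in an internal exon, beside 20.6% and 77.2% of the coding bases, both of which fell outside the intervals of the peaks. With the coding sequence cut into 4 equal parts from its 5′ end, coding peaks numbered 47, 44, 56 and 70 in them. The last part held 32.3% of the coding peaks (26.1 to 38.9%) and 28.1% of the coding bases over 1 kb from a start. The first part held 21.7% of the coding peaks (16.4 to 27.7%) and 19.7% of those bases.

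**Figure D3:**
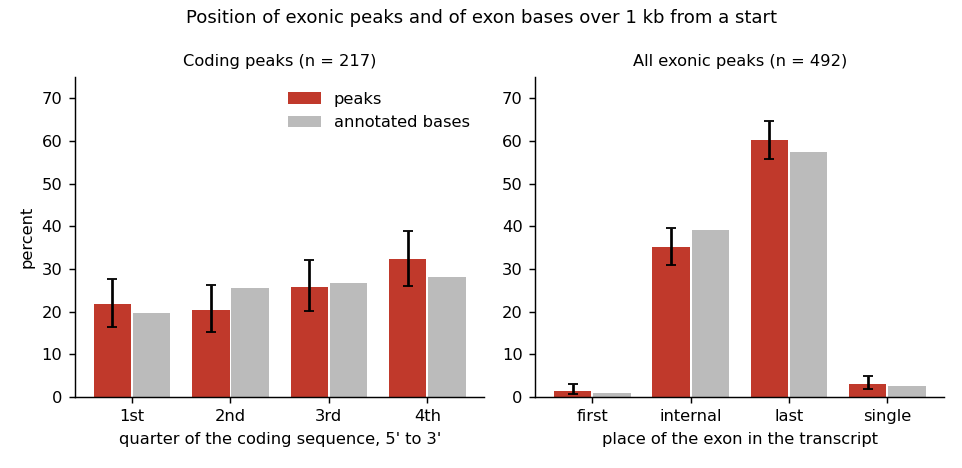
Percent of peaks (red bars, with 95% exact intervals) and of annotated bases over 1 kb from a start (grey bars) by equal parts of the coding sequence for the 217 coding peaks (left) and by place of the exon in the transcript for all 492 exonic peaks (right). The last exon holds 60.4% of the peaks and 57.4% of the bases. The bases, unlike the peaks, leave out noncoding transcripts of protein-coding genes.

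The coding exons hit had a median length of 234 bp, and the summit lay a median of 61 bp from the nearer exon edge. It lay within 100 bp of an edge for 150 of 217 coding peaks (69.1%, 62.5 to 75.2%), beside 70.6% of the coding bases. The 3′ UTR peaks lay in exons with a median length of 2406.5 bp, 467 bp from the nearer edge and 820.5 bp from the transcript end. Within 1 kb of the transcript end lay 59.4% of the 170 (51.6 to 66.9%), beside 52.0% of the 3′ UTR bases. The lower end of that interval lay just below the share of bases. The 5′ UTR peaks lay a median of 1801 bp from the nearest start, and 3 of the 14 were in the first exon of their transcript.

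The GGAA core was found within 50 bp of the summit in 458 of the 492 exonic peaks (93.1%, 90.5 to 95.2%), beside 92.6% of all 18804 peaks. In equally long windows 500 bp to either side of the exonic summits it stood in 63.9%. All words were sought on both strands.

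CGGAAG, the form with a CpG before the core, stood in 153 of 492 exonic peaks (31.1%, 27.0 to 35.4%), beside 30.6% of all peaks. The share was 42.4% in promoter peaks (41.4 to 43.4%), 17.02% in intronic peaks (15.9 to 18.2%) and 20.3% in intergenic peaks (19.1 to 21.4%). The exonic interval overlapped none of these 3. In the flanking windows it was 2.44% for exonic, 3.73% for promoter, 1.58% for intronic and 1.58% for intergenic peaks. Among the classes it was 35.9% in coding exons (29.6 to 42.7%), 26.5% in 3′ UTRs (20.01 to 33.8%), 17.1% in noncoding transcripts and 36.0% in noncoding genes, and 5 of the 14 peaks in 5′ UTRs had it.

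AGGAAG, the form without a CpG, ran the other way. It stood in 240 exonic peaks (48.8%, 44.3 to 53.3%), beside 43.3% of all peaks, 28.6% of promoter, 61.3% of intronic and 54.5% of intergenic peaks. The exonic share lay below the intronic interval of 59.8 to 62.7% and far above the promoter one of 27.7 to 29.6%. The 8-letter word CCGGAAGT stood in 9.55% of exonic peaks (7.10 to 12.5%), beside 8.16% of all peaks, 11.4% of promoter, 4.22% of intronic and 5.42% of intergenic peaks, and in 0.203% of the exonic flanks. CGGAAG or AGGAAG or both stood in 357 exonic peaks (72.6%), beside 67.6% of all peaks.

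**Figure D4:**
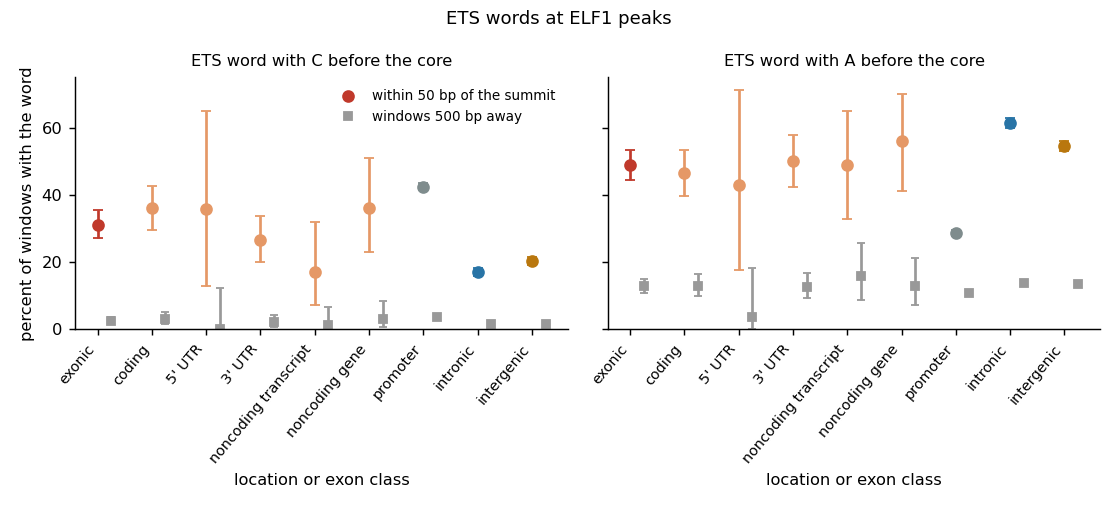
Percent of windows holding the word CGGAAG (left, C before the core) or AGGAAG (right, A before the core) within 50 bp of the summit (circles) and in equally long windows 500 bp off (squares), by location and exon class, with 95% exact intervals. Exonic peaks hold the first word in 31.1%, between promoter (42.4%) and intronic (17.02%) peaks, and the second in 48.8%, again between them.

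The share of exonic peaks with CGGAAG showed no steady fall with distance from a start. It was 36.4% at 1 to 2 kb, 31.5% at 2 to 5 kb, 27.6% at 5 to 20 kb and 32.2% (20.6 to 45.6%) beyond 20 kb, with overlapping intervals. Intronic peaks stood at 20.2, 17.8, 15.8 and 16.7% in the same bands. Signal did go with the word. In the stronger 50% of the list 97 of 186 exonic peaks had CGGAAG (52.2%, 44.7 to 59.5%), beside 54.4% of promoter, 26.0% of intronic and 29.8% of intergenic peaks. In the weaker 50% it was 18.3% of exonic (14.1 to 23.1%), 20.3% of promoter, 12.4% of intronic and 14.6% of intergenic peaks. The exonic interval included the promoter share in both parts of the list, and in the weaker part the intergenic share too. Exonic peaks with CGGAAG had a median signal of 90.0 (75.6 to 104.2, n = 153), beside 52.6 (49.2 to 56.2, n = 339) for those without. For AGGAAG the medians were 58.7 with and 57.5 without the word.

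Base composition lay between that of promoter and other peaks too, and its part in the word shares was not tested. Within 100 bp of the summit exonic peaks had a median GC content of 53.7%, beside 62.7% for promoter and 50.7% for both intronic and intergenic peaks. The ratio of observed to expected CpG had a median of 0.369 in exonic, 0.809 in promoter, 0.239 in intronic and 0.277 in intergenic peaks. Coding exons stood higher (GC 55.7%, CpG ratio 0.481) than 3′ UTRs (52.7% and 0.286) and noncoding transcripts (50.7% and 0.193).

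The words were near the summit and on either strand of the host gene. For the CGGAAG copy nearest the summit, 122 of 153 centres lay within 25 bp (79.7%), and for AGGAAG 177 of 240 (73.8%). CGGAAG read on the host gene's sense strand in 64 of 153 peaks (41.8%, 33.9 to 50.1%) and AGGAAG in 120 of 240.

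Within coding sequence the words stood at codon positions in shares like those of the same words over the whole coding sequences of the hosts. Counted over coding peaks whose host coding sequence was complete, sense AGGAAG began at the second base of a codon in 37 of 54 peaks (68.5%, 54.4 to 80.5%), beside 443 of 683 occurrences (64.9%) in the whole coding sequences of these hosts. In that frame the codon inside the core reads GAA, for glutamate. Antisense CGGAAG began at the third base in 29 of 44 peaks (65.9%, 50.1 to 79.5%), beside 65.0% of 203 occurrences in the hosts. In that frame the codon on the gene strand reads TTC, for phenylalanine. Sense CGGAAG began at the first base in 14 peaks, at the second in 15 and at the third in 3, beside 89, 93 and 38 occurrences in the hosts. The occurrences in the hosts include those under the peaks.

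Other words were rarer. GGGCGG, the GC box bound by SP-family factors, stood in 7.32% of exonic peaks (5.18 to 9.99%), beside 34.6% of promoter, 5.18% of intronic and 7.73% of intergenic peaks. CCAAT, the core bound by NF-Y, stood in 9.15%, beside 12.0% in the exonic flanks and 16.6% of promoter peaks, and in coding peaks it was 5.53% at the summit and 11.8% in the flanks. TGTGGT, the RUNX core, stood in 9.55% (7.10 to 12.5%), beside 4.26% of promoter, 10.5% of intronic and 9.17% of intergenic peaks. TGANTCA, the AP-1 word, stood in 4.27% (2.66 to 6.45%), beside 1.58% of promoter, 6.52% of intronic and 6.61% of intergenic peaks. GGAANTGAA, a composite ETS and IRF word, stood in 3.05% beside 3.24% of all peaks. TTTCNNTTT stood in 4.47%, CACGTG in 2.44%, AAGATGG in 1.83% and TGCGCATGC in 0.610% of exonic peaks, beside 3.65, 3.36, 2.08 and 0.909% of all peaks. The first 2 of these are the words of IRF and E-box factors, and the others are promoter words of YY1 and NRF1.

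The 5 strongest coding peaks lay in 4 genes. Krt10, a keratin gene of the epidermis, had a signal of 640.2 at chr11:99247165-99247645. Cdsn, the gene of corneodesmosin that joins cells of the outer skin, had 420.6 in its last exon at chr17:35691816-35692297. Neither gene had a peak within 1 kb of its own starts. The other 3 of the 5 strongest belonged to the Cyp4f cluster of cytochrome P450 enzymes, which hydroxylate fatty acids and eicosanoids. Cyp4f17 had 554.7 in exon 7 of 13 (chr17:32660886-32661216) and 358.0 in exon 13 of 13 (chr17:32665567-32665883), and Gm9705 had 464.4 in exon 13 of 13 (chr17:32771847-32772162).

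The last exons of these Cyp4f genes held the same pair of sites. Cyp4f16, whose exon 13 of 13 carried a further coding peak with a signal of 313.9, was looked at with them after these values were seen. Over 120 bp around the sense site Cyp4f16 and Gm9705 were 97.5% identical, Cyp4f16 and Cyp4f17 92.5%, and Cyp4f17 and Gm9705 90.8%. Reads of near-identical copies may be assigned to any of them, so how the signal is divided among the copies is uncertain. The pair is printed for the 3 genes with an exonic peak and for 2 related genes without one in the mm9 list, with CGGAAG in capitals.
Gm9705, antisense site, chr17:32771975-32772003, minus strand: ccggcaggatgCGGAAGcgcagcagagtc
Cyp4f17, antisense site, chr17:32665716-32665744, minus strand: ctggcaggacgCGGAAGcgcagcagagtc
Cyp4f16, antisense site, chr17:32688055-32688083, minus strand: caggcaggatgCGGAAGcgcagcagagtc
Cyp4f13, antisense site, chr17:33061817-33061845, plus strand: ctggcaggatgCGGAAGcgcagcagggtc
Cyp4f40, antisense site, chr17:32813302-32813330, minus strand: ctggcaggatgCGGAAGcgcagcagagtc
Gm9705, sense site, chr17:32772010-32772038, plus strand: aggagccgcgcCGGAAGccagagataatc
Cyp4f17, sense site, chr17:32665751-32665779, plus strand: aggagcctcgcCGGAAGccagagctgatc
Cyp4f16, sense site, chr17:32688090-32688118, plus strand: aggagccgcgcCGGAAGccagagataatc
Cyp4f13, sense site, chr17:33061782-33061810, minus strand: aggagccgcgcCGGAAGccagagctgatc
Cyp4f40, sense site, chr17:32813337-32813365, plus strand: aggagccacgcCGGAAGccagagctgatc

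Of the 9 genes of this family in the annotation, 3 had a peak in the last coding exon and 6 had none there. All 9 held CGGAAG on the antisense strand of that exon, and 6 held it on both strands. The antisense 29-base stretches of Cyp4f13 and Cyp4f40, which had no peak there, shared 27 and 28 of 29 bases with that of Cyp4f17, while Cyp4f16 and Gm9705, which had one, each shared 27. In the mm10 optimal list Cyp4f13 did have 1 peak within its gene, with a signal of 219.9, close to the 219.1 of the single peak in Gm9705, and Cyp4f40 had none.

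The strongest peaks in 3′ UTRs were spread over unrelated genes. The highest of all 492 had a signal of 876.8 at chr11:100487935-100488288, in a region where the last exon of Zfp385c, a zinc finger gene, overlaps an exon of Nkiras2, an inhibitor of NF-κB signalling. The next were Aars, the alanyl-tRNA synthetase, with 497.8, and Itsn1, a scaffold of endocytosis, with 490.0 in exon 39 of 39. Rtn2, a reticulon of the endoplasmic reticulum, had 475.6, and the zinc finger gene Zfp775 had 434.7. Of these 5, Aars also had a peak at its own promoter. The nearest start to the Zfp385c peak was that of Nkiras2, 3804 bp away.

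In 5′ UTRs the strongest was 1700081L11Rik with 344.7 in exon 2 of 14. Hoxb4, a homeobox gene of blood stem cells and the embryonic axis, followed with 241.3. Metap2, a methionine aminopeptidase, had 114.6, Nup160, a nucleoporin, had 110.4, and Ethe1, a mitochondrial sulfur dioxygenase, had 105.8. In noncoding transcripts of protein-coding genes the strongest were Phf15, a PHD finger gene, with 209.0, Zfand1 with 189.7, the glypican Gpc6 with 179.8, Unc93b1, which carries Toll-like receptors to endosomes, with 134.6, and Ttc25, a gene of motile cilia, with 123.8. The Gpc6 peak lay 426713 bp from the nearest start, the farthest of the exonic peaks. Among noncoding genes the antisense gene D030055H07Rik had 543.9, the lincRNA gene A530083I20Rik 458.2, B430212C06Rik 414.8, Gm14486 379.8 and A830009L08Rik 334.2. B430212C06Rik lies on chromosome 18, from which no sequence is printed.

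The 492 peaks belonged to 466 host genes, of which 416 were protein-coding, and 26 hosts had 2 exonic peaks each. Of the 416 protein-coding hosts, 165 (39.7%, 34.9 to 44.5%) also had a peak within 1 kb of a start of their own, beside 52.6% of the 2544 protein-coding hosts of intronic peaks (50.6 to 54.6%) and 36.8% of all 22367 protein-coding genes. The interval of the exonic hosts included the share of all genes and lay below that of the intronic hosts. Counting every overlapping gene by symbol, 420 of 22225 protein-coding genes (1.89%) had an exonic peak.

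Of 29 genes of B cell identity and signalling found in the annotation, 3 had an exonic peak (10.3%, 2.19 to 27.4%). The lower end of this interval lay just above the 1.89% of all protein-coding genes. It rests on 3 genes, and several lists were read without correction. The lists were also chosen with earlier results of these data known, so no excess of B cell genes is claimed. Bank1, a scaffold of B cell receptor signalling, had a coding peak with a signal of 62.0 in exon 3 of 17. Cd22, an inhibitory receptor of B cells, had one with 50.01 in exon 7 of 16. Cd37, a tetraspanin of B cells, had one with 50.3 in the 3′ UTR. All 3 lay in the lower part of the list. Of 25 ETS family genes 1 had exonic peaks. This was Erg, an ETS factor of blood and endothelium, with a coding peak of 51.0 and a 3′ UTR peak of 55.3 in the same exon 12 of 12, neither with CGGAAG or AGGAAG.

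Other families were taken by the start of the gene symbol alone. Of 407 zinc finger genes 13 (3.19%, 1.71 to 5.40%) had an exonic peak. So had 2 of 48 histone-modifying enzyme genes (Kdm4a and Ezh2) and 1 of 36 protocadherin genes (Pcdh1). Of 144 genes with symbols starting Rpl or Rps and a digit, which need not all encode ribosomal proteins, 0 had one (upper bound 2.53%). The intervals of all 4 included the 1.89% of all protein-coding genes.

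Chromosomes that held many peaks of any kind mostly held many exonic ones. Chromosome 11 had 70 exonic of 2180 peaks (3.21%, 2.51 to 4.04%) and chromosome 7 had 38 of 1192 (3.19%). Chromosome 16 had the highest share, 34 of 867 (3.92%, 2.73 to 5.44%), and its interval lay above the 2.62% of the whole list. Chromosome 13 had 10 of 720 (1.39%, 0.668 to 2.54%), and its interval lay below that share. Chromosome X had 2 of 273 (0.733%, 0.0888 to 2.62%). Such intervals were read for 21 chromosomes without correction, so some may miss the share of the whole list by counting error alone.

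The replicates were looked at through their own mm10 lists, each of 300000 entries that hold peaks and background alike. Since no coordinate was moved between builds, a peak was sought by its host gene and its offset from the gene's ends, within 100 bp. Of the 492, 469 (95.3%) had a host gene found in the mm10 gene table by symbol or synonym. Of these, 377 (80.4%, 76.5 to 83.9%) had an entry in both replicates, 390 in replicate 1, 408 in replicate 2 and 48 in neither. The optimal list held an entry for 380 (81.0%) and the conservative list for 375 (79.96%). Both of these lists were cut by the irreproducible discovery rate. By class 180 of 217 coding, 12 of 14 5′ UTR, 136 of 166 3′ UTR, 27 of 41 noncoding transcript and 22 of 31 noncoding gene peaks had an entry in both replicates.

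The match depended on the gene's ends being annotated alike in both builds. Where the gene length was equal within 100 bp, which held for 245 of the 469 peaks, 223 (91.0%, 86.7 to 94.3%) had an entry in both replicates and 4 in neither. Both Cyp4f17 peaks, Aars, Zfp775 and 1700081L11Rik found no entry, and their gene lengths differed between the annotations by more than 100 bp. Without regard to the offset, the optimal list held 2 peaks within the Cyp4f17 gene, the stronger with a signal of 296.2.

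Among the 377 peaks in both lists the signal ranged between 3.45 and 220.2 in replicate 1 and between 4.85 and 287.3 in replicate 2. The median was 20.9 in replicate 1, beside 4.26 over its whole list, and 28.2 in replicate 2, beside 4.74 over its whole list. The signal was higher in the replicate 2 list for 308 of 377 peaks, with a median ratio of 1.35 between replicate 2 and replicate 1. The scale of each list is its own, so this ratio describes the lists and not the amount of ELF1. Across these peaks the log2 signals had a Pearson correlation of 0.801 and the signals a Spearman correlation of 0.753, given as a description of peaks that share their libraries. The standard deviation of the log2 ratio was 0.589.

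Several peaks named for their high mm9 signal stood far above the list medians in both replicates. The mm9 list joined these same replicates, and the replicate lists hold background too. The choice of peaks thus largely fixed this outcome. The Zfp385c peak had 202.7 in replicate 1 and 193.7 in replicate 2. Cdsn had 108.4 in replicate 1 and 140.5 in replicate 2. Gm9705 had 88.1 in replicate 1 and 130.3 in replicate 2, and Itsn1 129.6 in replicate 1 and 143.1 in replicate 2. The Cdsn, Gm9705 and Itsn1 entries were higher in replicate 2, and the Zfp385c entry in replicate 1. Rtn2 had 137.0 in replicate 1 and 155.1 in replicate 2. Of the B cell genes, Bank1 had 15.04 in replicate 1 and 31.2 in replicate 2, Cd22 11.7 in replicate 1 and 25.6 in replicate 2, and Cd37 15.2 in replicate 1 and 21.2 in replicate 2. All 3 lay below the median of the matched exonic peaks in replicate 1, and in replicate 2 only Bank1 lay above it. Krt10 had an entry of 190.2 in replicate 2, 314.5 in the optimal list, and none within 100 bp of the sought offset in replicate 1. Its gene length differed by 8085 bp between the annotations. A replicate 1 entry farther from the offset may thus have been missed, and the peak cannot be called absent there.

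**Figure D5:**
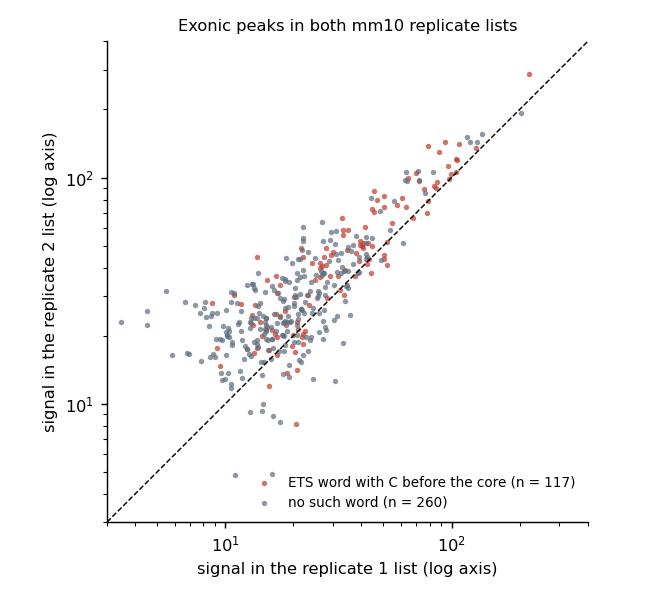
Signal in the replicate 2 list (vertical log axis) against signal in the replicate 1 list (horizontal log axis) for the 377 exonic peaks found in both mm10 lists; red points hold CGGAAG within 50 bp of the mm9 summit (117 peaks) and grey points do not (260). The dashed line marks equal values, and 308 points lie above it.

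The peaks with CGGAAG had the higher median in each replicate list. The mm9 list was made from the same 2 replicates, so these medians are not independent of the mm9 ones. In replicate 1 their median was 31.6 with the word (n = 117) and 18.5 without (n = 260), and in replicate 2 it was 42.0 with and 25.2 without.

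Starts of a second annotation were compared too. Of 368 peaks with an entry in the optimal list and starts to compare with (chromosome 18 was not used here), 10 (2.72%, 1.31 to 4.94%) lay within 1 kb of a RefSeq start on the mm10 build. Of the 5′ UTR peaks 4 of 12 did so, of the coding peaks 5 of 174, of the 3′ UTR peaks 0 of 129, and of the noncoding gene peaks 1 of 22. For 5 of them the start was the host gene's own, at 8 bp for Coq10a, 24 bp for Psmc2, 78 bp for both Ethe1 and Polg, and 386 bp for Hoxb4. For the other 5 the start carried a gene symbol other than the host's, at 104 bp (3300002I08Rik) to 496 bp (A930004D18Rik). Whether any of these symbols is a later name of the host was not checked. The 10 had a median signal of 96.7 in the mm9 list, beside 60.1 for the other 358, and CGGAAG stood in 3 of the 10 and in 31.8% of the 358. The RefSeq starts used did not cover every gene. For the Zfand1 peak, 1978 bp from a start of its own gene in GENCODE M1, the nearest RefSeq start used lay 998895 bp away. The 10 are thus a lower bound, and some of the 358 may lie near starts that were not covered.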

How the data were processed

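Peak lists in narrowPeak format were deposited for ELF1 ChIP-seq in 2 biological replicates of CH12.LX. Per the deposited README text, the mm9 list was made from the alignments of the 2 replicates together, each replicate's relaxed mm10 list from its own alignments and a control, and the optimal list from these by the irreproducible discovery rate. Which aligner and caller were used is not given in the sources used here, and read depth is unknown. The only measurement used was the deposited peak signal of column 7, as the authors' caller gave it.

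Each summit was placed on GENCODE M1 exons and NCBIM37 sequence, the build of the mm9 list, by its longest spliced transcript of the class. Words were sought up to 50 bp from each summit and in equal windows 500 bp to each side. mm10 gene ends and starts came from RefSeq tables of GRCm38.p6. No test between samples was possible with 1 group, so counts, shares with 95% Clopper-Pearson intervals and medians are given. Named were the 5 strongest peaks of each class and every peak in a gene of the B cell or ETS list. The members and lists were chosen with earlier results of these data known. The classification was tested on simulated data and placed 20000 of 20000 positions and 3000 of 3000 planted words correctly. Python 3 with numpy, pandas, scipy and matplotlib was used.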

Additional observations from a re-analysis of the deposited data

How the results depend on the processing

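Of 37 recomputed values 22 stayed within the counting error of the reported one and 15 did not. The exonic share of all peaks was 2.62% as reported, 3.14% with starts excluded to 500 bp, 2.05% to 2 kb, 2.13% with protein-coding transcripts only and 1.98% in the stronger 50% of the list. The coding share was 35.6% with noncoding exons first, and the 3′ UTR share 40.0% with starts excluded to 2 kb. CGGAAG stood in 23.2% of exonic peaks within 25 bp and in 52.2% of the stronger 50%, and AGGAAG in 33.9% within 25 bp and 59.96% within 100 bp. Within 25 bp CGGAAG remained between promoter (30.0%) and intronic (12.4%) peaks. Median GC content was 55.4% within 50 bp of the summit. The share matched in mm10 was 65.2% within 50 bp, 90.0% within 250 bp and 70.8% among the strongest entries of each relaxed list; leaving out replicate 1 gave 87.0% and replicate 2 gave 83.2%. Leaving out the 10 peaks near a RefSeq start, an alternative chosen after seeing the data, moved none of the values it was applied to beyond counting error. Removing so few of the 492 peaks could not have moved them that far. These values, which are among the 22, thus say nothing about starts missing from the annotation. No paired analysis was possible because there was 1 group. Read depth, and so the power to call weak exonic peaks, is unknown.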
